A study of Mus musculus with 11 samples.

Results

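The comparison described here is the change over time in cells given the fatty acid CLA, from 8 h to 12 h. It rests on 4 of the 11 arrays analysed, the 2 CLA arrays of 12 h and the 2 CLA arrays of 8 h, chosen by their labels alone after quantile normalisation over all 11 arrays. The cells were 3T3-L1, an established line of mouse fibroblasts that turns into fat cells under hormonal induction, and the labels describe the cultures as preadipocytes. Each culture received either t10c12 CLA, a conjugated linoleic acid with a trans double bond at carbon 10 and a cis one at carbon 12, or LA, linoleic acid, as the control. Cultures were sampled at 4, 8 or 12 h, and the RNA of each sample was read on 1 Affymetrix array. No untreated cells and no dose are given in the labels, so every level is that of a cell given 1 or the other fatty acid. The 2 LA arrays of 8 h and the 2 LA arrays of 12 h serve here to show whether a change was also seen with LA, and the 2 CLA arrays of 4 h give the earlier level. Replicates are termed biological in the labels without a word on whether separate dishes were used. The p-values therefore speak only to the scatter among these samples, and that scatter may be technical.

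Preadipocytes are fibroblast-like cells that hold actin stress fibres, lay down collagen and secrete chemokines. On their way to becoming fat cells they lose much of their contractile and matrix programme and gain genes of fat uptake and storage. The t10c12 isomer of CLA is known for lowering fat content in mice and in cultured adipocytes. It has also been tied to inflammatory signalling and to the integrated stress response, in which phosphorylation of a translation factor raises the transcription factor ATF4 and, through it, genes of amino acid synthesis, uptake and tRNA charging.

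The cells carried the fibroblast side of their label. Of 15 marker genes of preadipocytes and fibroblasts on the array, 1 lay at background in the CLA arrays of 8 and 12 h, and their summed intensity ran from 67162 to 68560 at 8 h and from 63906 to 67609 at 12 h. Of 11 adipocyte markers, 5 lay at background, among them Adipoq and Lep, and the sum of all ran from 361 to 385 at 8 h and from 287 to 301 at 12 h. Most of that sum came from Fabp4, at 299 and 250 at 8 h and 189 and 219 at 12 h. The 4 CLA arrays differed in ways that the times do not account for. Deposited median intensities were 20.1 and 12.8 at 8 h and 14.7 and 15.8 at 12 h, and the 18S rRNA control signal was 514 and 752 at 8 h but 316 and 1755 at 12 h. On the leading principal component (35% of the variance) the 8 h CLA arrays scored -15.1 and 8.41 and the 12 h CLA arrays 4.69 and 17.0, while both LA arrays of 12 h scored 49.5 and 49.7. The second CLA array of 12 h correlated slightly better with the second CLA array of 8 h (r = 0.976 across genes) than with its own replicate (r = 0.971). The numbers of calls in CLA cells and of genes with differing changes are given below without single arrays. They are also given with the median intensity or the 18S rRNA signal as a covariate. Beyond these refits, the part of these differences in the results was not tested.

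Between 8 h and 12 h, CLA cells changed in 50 of the 12498 genes tested (0.4%), with 18 higher (0.144%) and 32 lower (0.256%) at an adjusted p of 0.05 (limma, Benjamini-Hochberg). The genes that rose included actin cytoskeleton genes of smooth muscle (Actg2, Tagln, Myl9, Flna) and genes of serine synthesis, amino acid uptake and mitochondrial phosphoenolpyruvate synthesis (Psph, Slc7a5, Pck2). Those that fell included the chemokine Cxcl5, the NF-kB cofactor Nfkbiz, the adhesion molecule Vcam1, and receptors and secreted regulators of growth (Pdgfra, Tgfbr3, Osmr, Igfbp4, Sfrp2). Most steps were small, and 7 of the 50 exceeded a log2 difference of 1 in size. In all 50 the 2 arrays of 12 h lay wholly above or below the 2 arrays of 8 h, but so did those of 2372 genes above (19%) and 1782 below (14.3%) among all genes tested. With 2 arrays per time the calls depended on the spread estimated over all groups. Leaving out 1 array moved the count to 13 without the first CLA array of 8 h, to 73 (36 higher and 37 lower) without the second, to 27 and 81 without the first and second of 12 h, to 12 without either LA array of 8 h, and to 23 and 25 without the first and second LA array of 12 h. Scaling each array to the same median in place of quantile normalisation gave 7 calls, 4 higher and 3 lower. The values as deposited, without scaling, gave 1 call, which was lower.

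**Figure D1:**
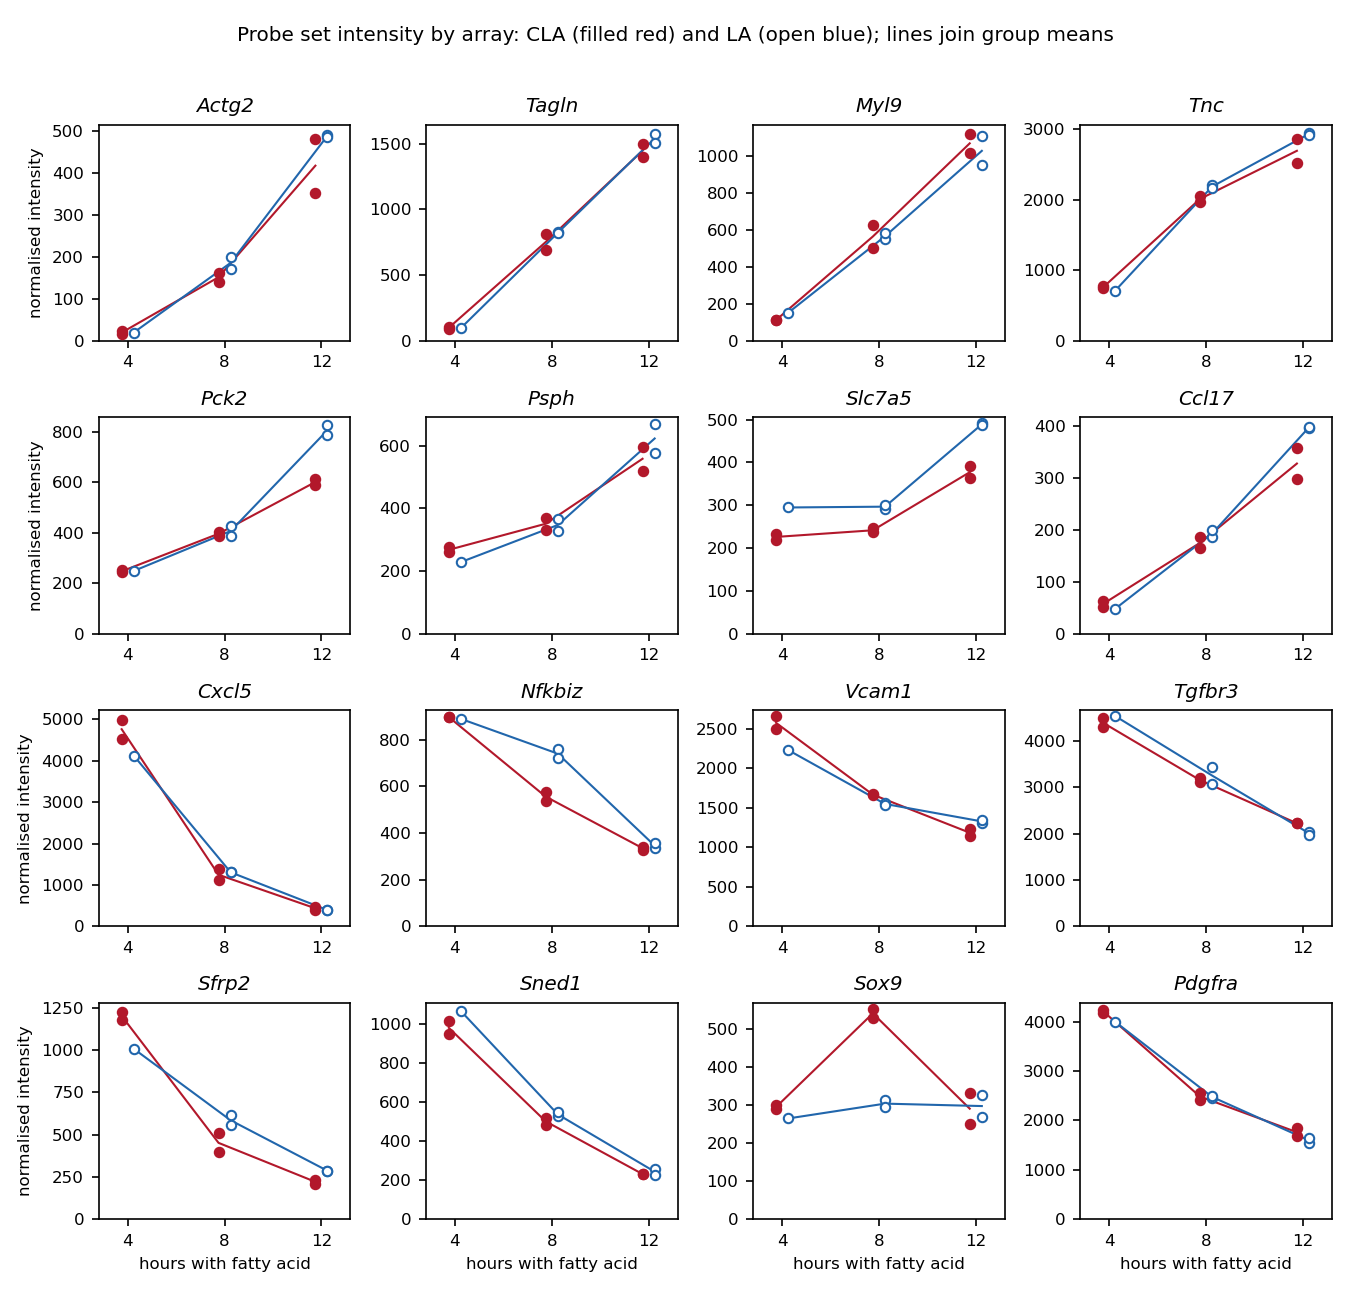
Normalised intensity (linear scale, y axis from 0) against hours with the fatty acid for 16 called genes; each point is 1 array, red filled for CLA and blue open for LA (1 LA array at 4 h), and lines join group means. In every panel the CLA points of 8 and 12 h do not overlap; Actg2 climbs from 152 to 417 and Cxcl5 falls from 1247 to 436 between these times in CLA cells, and Sox9 is the gene whose CLA level at 8 h stands above its level at 4 h and 12 h.

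Of the gene lists, that of the smooth muscle contractile genes had the most calls higher. Its counts are a description only, as members and lists were chosen with earlier results of these data known. Smooth muscle gamma-actin (Actg2) had normalised intensities of 141 and 163 in the CLA arrays of 8 h and 353 and 482 in those of 12 h, a 2.71-fold rise (log2 difference 1.44 ± 0.21 SE, adjusted p = 0.0216). Transgelin (Tagln), an actin-binding protein of smooth muscle, went from 693 and 811 to 1496 and 1397 (1.93-fold, 0.95 ± 0.11 SE, adjusted p = 0.00957). The regulatory myosin light chain Myl9 went from 503 and 624 to 1016 and 1117 (1.90-fold, 0.92 ± 0.12 SE, adjusted p = 0.0156). None of these groups overlapped, and all 3 genes had been lower at 4 h, with means over the CLA arrays of 19.7 for Actg2, 99.9 for Tagln and 112 for Myl9. Filamin A (Flna), which crosslinks actin filaments, rose from 2769 and 3054 to 3824 and 3604 (1.28-fold, adjusted p = 0.0461). Of the 12 contractile genes tested, 4 rose and 0 fell, against 0.144% called higher among all genes, and 10 had a positive difference. The median of the list was 0.32, against 0.02 for all genes tested, and it lay between 0.24 and 0.42 in the alternatives tried. The remaining 8 members did not pass the test, although Acta2, the smooth muscle alpha-actin that marks myofibroblasts, was already among the brightest genes, at 8421 ± 231 (SD, n = 2) at 8 h and 9116 ± 204 at 12 h (adjusted p = 0.355). Markers of skeletal muscle did not stand high beside these genes: 6 of 10, Myog and Des among them, were at background, and their sum ran from 97.1 to 111 at 8 h and from 85.4 to 143 at 12 h.

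The promoters of Myl9 and Flna are shown because they are the called contractile genes that RefSeq's promoter table (GRCm38.p6, 250 bases before to 50 after the start) holds. Capitals mark the CArG box, the binding motif of serum response factor, which drives many contractile genes. Myl9 has 1, starting 161 bases before the start site, and reads the same motif on both strands, while these letters do not occur in this window of Flna.
Myl9 (chr2:156775214-156775513, plus strand): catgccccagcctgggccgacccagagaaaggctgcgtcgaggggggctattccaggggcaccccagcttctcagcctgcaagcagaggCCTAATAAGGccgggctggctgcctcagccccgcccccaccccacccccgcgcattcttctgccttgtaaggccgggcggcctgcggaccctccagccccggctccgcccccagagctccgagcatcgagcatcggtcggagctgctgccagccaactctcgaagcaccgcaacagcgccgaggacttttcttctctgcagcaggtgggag
Flna (chrX:74246485-74246784, minus strand): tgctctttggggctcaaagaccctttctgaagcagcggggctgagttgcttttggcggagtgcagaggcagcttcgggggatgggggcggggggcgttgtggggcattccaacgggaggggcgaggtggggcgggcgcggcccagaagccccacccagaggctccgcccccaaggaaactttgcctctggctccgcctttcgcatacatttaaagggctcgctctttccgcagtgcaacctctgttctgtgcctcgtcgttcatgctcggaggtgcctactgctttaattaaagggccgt
Searched on both strands, the box occurred in the promoters of 3 of the 10 contractile genes in the table (Cnn2, Myl9 and Vcl) and in those of 1.81% of all 27025 genes. Of these 3, only Myl9 passed the test.

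Pck2, Psph and Slc7a5, taken from the lists of the integrated stress response and of amino acid transporters, also rose. Mitochondrial phosphoenolpyruvate carboxykinase (Pck2), a known ATF4 target, measured 388 and 403 in CLA cells at 8 h and 591 and 611 at 12 h (1.52-fold, log2 difference 0.60 ± 0.10 SE, adjusted p = 0.0277). Phosphoserine phosphatase (Psph), the last enzyme of serine synthesis, went from 369 and 332 to 596 and 520 (1.59-fold, 0.67 ± 0.12 SE, adjusted p = 0.0492). Slc7a5, the light chain of the LAT1 transporter for large neutral amino acids, went from 237 and 246 to 363 and 392 (1.56-fold, 0.64 ± 0.10 SE, adjusted p = 0.0277). The arrays of the 2 times were apart in each. At 4 h the CLA means were 247 for Pck2, 267 for Psph and 226 for Slc7a5, so that Slc7a5 stood near its 8 h level while Pck2 and Psph were lower.

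Of the 27 genes tested on the list of the integrated stress response, 2 rose (Pck2 and Psph) and 0 fell, against 0.144% called higher among all genes. Pck2 kept its call in 9 of the 23 alternatives tried and Psph in 6. The differences of 22 were positive, and in 17 the 12 h arrays lay wholly above the 8 h arrays, against 19% of all genes. The list's median was 0.32 against 0.02 for all genes, and it was 0.11 without the first CLA array of 8 h. Phosphoglycerate dehydrogenase (Phgdh), the entry enzyme of serine synthesis, measured 915 ± 21.8 (SD, n = 2) at 8 h and 1159 ± 49.5 at 12 h (log2 difference 0.34, adjusted p = 0.13). No transcription factor of the list passed the test. Log2 differences were 0.13 for Atf4 (adjusted p = 0.715), 0.21 for Ddit3 (adjusted p = 0.558) and -0.08 for Cebpb (adjusted p = 0.84). Atf4 read 1866 and 1924 at 8 h and 2272 and 1895 at 12 h, with overlapping arrays. Atf5 gave 0.43 (adjusted p = 0.216) and the dim Atf3 0.82 (adjusted p = 0.783), both with their arrays apart upward and both named after their values were seen. The rise of this list was not particular to CLA. In LA cells 11 of the 27 genes were called higher (10.9% of all genes) and 1 lower (11.3%). The list's median there was 0.37, against 0.13 for all genes.

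None of the 19 aminoacyl-tRNA synthetases, which charge tRNAs with amino acids and many of which ATF4 raises, passed the test in CLA cells. Of these, 18 had a positive difference and 9 had their arrays apart upward, against 19% of all genes. Their median was 0.18 (0.06 to 0.26 over the alternatives, the first without the first CLA array of 8 h), with the 3 smallest p-values in Nars (0.42, adjusted p = 0.144), Farsa (0.56, adjusted p = 0.178) and Wars (0.47, adjusted p = 0.254). The 25 chaperones and folding enzymes of the endoplasmic reticulum likewise gave 0 calls, with 20 positive differences, 16 apart upward (19% of all genes) and a median of 0.18 (0.15 to 0.28 over the alternatives). Dnajb9, a co-chaperone of BiP, measured 491 and 446 at 8 h and 648 and 663 at 12 h (0.48, adjusted p = 0.0855), and the secreted factor Manf had a log2 difference of 0.29 (adjusted p = 0.0927). BiP itself (Hspa5), the main chaperone of the compartment, gave 0.10 (adjusted p = 0.701). Of the 14 amino acid transporters, Slc7a5 rose and the other members gave no call, against 0.144% called higher among all genes.

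The promoters of Pck2 and Psph follow, as those of the stress response genes that rose, with the letters TGATGNAA in capitals wherever they occur on either strand. This is the core of the composite site that C/EBP and ATF factors bind. Pck2 has 1 match, on the minus strand and starting 103 bases before the start site, and Psph has none in this window.
Pck2 (chr14:55540016-55540315, plus strand): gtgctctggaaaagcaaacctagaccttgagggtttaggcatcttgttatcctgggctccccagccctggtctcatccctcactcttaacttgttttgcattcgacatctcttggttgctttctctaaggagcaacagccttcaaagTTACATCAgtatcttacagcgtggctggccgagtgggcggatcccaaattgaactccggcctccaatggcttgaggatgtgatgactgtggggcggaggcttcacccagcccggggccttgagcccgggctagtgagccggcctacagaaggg
Psph (chr5:129787204-129787503, minus strand): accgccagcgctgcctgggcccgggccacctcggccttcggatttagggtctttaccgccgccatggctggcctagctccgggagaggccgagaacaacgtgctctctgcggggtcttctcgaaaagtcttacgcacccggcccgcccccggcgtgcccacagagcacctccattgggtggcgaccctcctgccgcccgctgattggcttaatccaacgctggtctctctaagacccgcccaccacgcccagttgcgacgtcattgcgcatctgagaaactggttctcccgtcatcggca
The letters occurred in the promoters of 8 of the 25 stress response genes in the table (Asns, Atf3, Chac1, Fgf21, Nupr1, Pck2, Trib3 and Vldlr), of 5 of 12 synthetases and of 4.51% of all genes. Of those 8 genes, only Pck2 passed the test.

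Other genes that rose had roles in matrix, signalling and lipid handling. Tenascin C (Tnc), a matrix glycoprotein of remodelling tissue, measured 2056 and 1973 at 8 h and 2871 and 2524 at 12 h in CLA cells (1.34-fold, log2 difference 0.42 ± 0.07 SE, adjusted p = 0.0444). It was the 1 call (higher) among 29 genes of the list of other matrix genes and proteases, against 0.144% called higher among all genes. Of these 29 genes, 19 had a negative difference. The called matrix genes Mfap5 and Sned1 are not on that list. A second, dimmer probe set of Tnc gave -0.41. Mfap5, a microfibril protein, went from 426 and 427 to 809 and 658 (1.71-fold, adjusted p = 0.0277). Ccl17, a chemokine that attracts T cells, went from 164 and 185 to 357 and 297 (1.86-fold, adjusted p = 0.0277), opposite to the other called chemokine. Hsd11b1, which makes active glucocorticoid inside the cell, went from 104 and 130 to 201 and 240 (1.87-fold, adjusted p = 0.0394). The fatty acid binding protein Fabp5 went from 1979 and 1996 to 2678 and 3159 (1.46-fold, adjusted p = 0.0277). Arrays of the 2 times were apart in each of these genes.

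The phospholipid-binding protein Anxa8 measured 233 and 255 at 8 h and 408 and 407 at 12 h (1.67-fold, adjusted p = 0.0267), after 51.4 and 49.9 at 4 h. The long noncoding RNA Morrbid, which limits expression of the pro-apoptotic gene Bcl2l11 in myeloid cells, measured 234 and 243, then 396 and 407 (1.68-fold, adjusted p = 0.0267). The choline transporter-like protein Slc44a2 rose 1.42-fold and Gask1b 1.49-fold, with adjusted p-values of 0.0395 and 0.0354. The 2 largest increases had weaker measurements behind them. Tmem258, a subunit of the oligosaccharyltransferase, went from 97.1 and 103 to 278 and 342 (3.04-fold, adjusted p = 0.0424), but a second probe set of this gene gave a log2 difference of -0.22. Ppfia3, a liprin scaffold protein, lay at background at 8 h (4.18 and 3.07, against a background level of 8.89) and at 20.1 and 22.0 at 12 h, at least 2.37-fold higher (adjusted p = 0.0461).

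The largest decrease was in the chemokine Cxcl5, which attracts neutrophils. It measured 1385 and 1109 in the CLA arrays of 8 h and 402 and 470 in those of 12 h, a 2.85-fold fall (log2 difference -1.51 ± 0.11 SE, adjusted p = 0.000377). The arrays were far apart, and the 4 h arrays, at 4533 and 4993, were higher still. Cxcl5 passed the test in 22 of the 23 alternatives tried, more than any other called gene, and missed it with an adjusted p of 0.0505 in the other one. Nfkbiz, an inducible cofactor of NF-kB, measured 577 and 536, then 341 and 330 (1.66-fold lower, -0.73 ± 0.09 SE, adjusted p = 0.0146). Vcam1, an adhesion molecule for leukocytes and a classic NF-kB target, measured 1655 and 1675, then 1139 and 1229 (1.41-fold lower, -0.49 ± 0.07 SE, adjusted p = 0.0189). The mitochondrial superoxide dismutase Sod2, another NF-kB target, measured 2237 and 2317, then 1704 and 1829 (1.29-fold lower, adjusted p = 0.0424).

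Of the 28 chemokine, cytokine and NF-kB genes tested, 3 fell (Cxcl5, Nfkbiz and Vcam1) and 0 rose, against 0.256% called lower among all genes. Ccl17, the chemokine that rose, is not on this list. The differences of 20 were negative, 11 had their arrays apart downward (14.3% of all genes) and 3 apart upward (19% of all genes), and the median was -0.14 (-0.20 to -0.04 over the alternatives, the last without the second CLA array of 8 h). Of 12 macrophage markers, 5 lay at background, Ptprc among them, and the sum of all was 603 to 701 at 8 h and 619 to 841 at 12 h. Most of that sum came from Cd14 and Csf1r, which stood well above background. Cd14 measured 375 and 471 at 8 h and 328 and 330 at 12 h, and Csf1r 127 and 116, then 426 and 193. The monocyte chemokine Ccl2 measured 3882 and 3215 at 8 h and 2742 and 2170 at 12 h, apart but short of the threshold (-0.53, adjusted p = 0.11). Interleukin 6 (Il6) overlapped between the times, with 1825 and 1212 at 8 h and 1304 and 1310 at 12 h (-0.19, adjusted p = 0.749).

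Sod2 is the called NF-kB target that the promoter table holds with a kappaB site, the motif bound by NF-kB, shown in capitals. The site starts 83 bases before the start site and matches on both strands.
Sod2 (chr17:13007589-13007888, plus strand): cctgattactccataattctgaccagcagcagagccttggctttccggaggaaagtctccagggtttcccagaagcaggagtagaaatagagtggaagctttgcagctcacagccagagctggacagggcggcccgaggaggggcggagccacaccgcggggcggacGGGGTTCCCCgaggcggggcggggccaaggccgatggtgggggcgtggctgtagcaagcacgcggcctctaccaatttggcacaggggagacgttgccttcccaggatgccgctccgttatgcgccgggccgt
Such a site occurred in the promoters of 9 of the 21 chemokine, cytokine and NF-kB genes in the table and of 5.14% of all genes. None of these 9 genes, which include Cxcl1, Il6 and Nfkbia, passed the test.

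Single receptors and regulators of growth factor signalling fell, 1 from each list. The list of growth factors and receptors had 1 call among 25 genes (Pdgfra) and a median of -0.04, insulin and IGF signalling 1 among 26 (Igfbp4, median -0.10), Wnt and Notch 1 among 24 (Sfrp2, median near 0) and ERK feedback 1 among 16 (Errfi1, median 0.09), each lower. The platelet-derived growth factor receptor Pdgfra, a marker of preadipocytes, measured 2556 and 2406 at 8 h and 1681 and 1839 at 12 h in CLA cells (1.41-fold lower, log2 difference -0.50 ± 0.07 SE, adjusted p = 0.0156). In a bulk culture, fewer cells of a kind and less of a transcript per cell cannot be told apart. Of the 14 preadipocyte and fibroblast markers tested, Pdgfra was the 1 call, 6 had a positive and 8 a negative difference, and the median was -0.02. Tgfbr3 (betaglycan), the co-receptor of TGF-beta, measured 3115 and 3191, then 2223 and 2220 (1.42-fold lower, -0.50 ± 0.06 SE, adjusted p = 0.0146). Tgfbi, a matrix protein that TGF-beta raises, measured 1459 and 1523, then 965 and 1064 (1.47-fold lower, -0.56 ± 0.08 SE, adjusted p = 0.0233). These 2 were the calls among 28 genes of TGF-beta, BMP and Id, against 0.256% called lower among all genes, with 18 negative differences and a median of -0.13 (-0.14 to -0.05 over the alternatives). The receptor of oncostatin M, Osmr, measured 2951 and 2887, then 2145 and 2172 (1.35-fold lower, adjusted p = 0.0164).

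The secreted Wnt modulator Sfrp2 measured 394 and 508 at 8 h and 207 and 234 at 12 h, a 2.03-fold fall (-1.02 ± 0.13 SE, adjusted p = 0.0146). Igfbp4, which binds and holds back insulin-like growth factors, measured 520 and 610, then 331 and 382 (1.58-fold lower, adjusted p = 0.0318). Errfi1, a feedback inhibitor of the EGF receptor, measured 390 and 436, then 262 and 288 (log2 difference -0.58 ± 0.11 SE, adjusted p = 0.049). All 3 were apart between the times. Sned1, a matrix glycoprotein, measured 483 and 519, then 232 and 230 (2.16-fold lower, -1.11 ± 0.10 SE, adjusted p = 0.00183), and with Tagln it kept its call in 20 of the 23 alternatives. Of the 50 called genes, 33 lost the call in more of the alternatives than they kept it, among them Sod2 (kept in 7), Flna, Tnc and Errfi1 (6 each), Lpl (5) and Ppfia3 (2). The transcription factor Sox9, which restrains adipogenesis and drives cartilage, measured 530 and 555 at 8 h and 332 and 250 at 12 h (1.88-fold lower, -0.91 ± 0.15 SE, adjusted p = 0.0277). Its 4 h arrays, at 301 and 290, overlapped its 12 h level, so its 8 h level was the high one.

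Several enzymes of redox, steroid and lipid metabolism fell as well. Akr1c14, a 3-alpha-hydroxysteroid dehydrogenase, measured 133 and 97.1 at 8 h and 40.9 and 48.9 at 12 h (2.48-fold lower, log2 difference -1.31 ± 0.21 SE, adjusted p = 0.0277). The glutathione transferase Gstm1 measured 395 and 391, then 257 and 237 (1.59-fold lower, adjusted p = 0.0277), and the microsomal transferase Mgst1 fell 1.26-fold (adjusted p = 0.0218). Gstm1 and Sod2, both lower, were the calls among 23 genes of the NRF2 and antioxidant list, against 0.256% called lower among all genes. The median of that list was 0.02, as for all genes. The selenium carrier Selenop fell 1.43-fold, from 4202 and 4533 to 2938 and 3179 (adjusted p = 0.0163). Lipoprotein lipase (Lpl), which frees fatty acids from circulating triglyceride, had the smallest called step, from 5851 and 5817 to 4824 and 4917 (1.20-fold lower, -0.26 ± 0.05 SE, adjusted p = 0.0465). Lpl, lower, and Fabp5, higher, were the calls among 13 genes of lipid droplets and lipolysis. Among all genes, 0.256% were called lower and 0.144% higher.

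The remaining decreases, in order of size, ran from 1.90-fold to 1.32-fold and all had their arrays apart. They were in the guanine nucleotide exchange factor Arhgef6, the steroid sulphate transporter Slc10a6, the actin-binding protein Gas7, the ubiquitin ligase adaptor Klhl24, Islr (Meflin, a marker of mesenchymal stromal cells), the glycosyltransferase Mgat4b and the kinase Camkk2. They also took in the immunoproteasome subunit Psmb10, Capn6, the leucine zipper protein Tsc22d4, Adam23, Tmem176a, Clca3a1 and the kinase Stk38. Of 52 other probe sets that 30 of the called genes have on the array, 46 gave a difference of the same sign. Some of these were much smaller than for the probe set used. They gave -0.10 against -0.58 in Errfi1, 0.12 against 0.60 in Pck2 and, for 1 of them in Klhl24, -0.06 against -0.75. The opposite ones were 1 each in Camkk2, Gas7, Osmr, Sod2, Tmem258 and Tnc. The genes Akr1c14, Arhgef6, Slc10a6, Psmb10, Capn6, Tsc22d4, Adam23, Selenop, Tmem176a, Clca3a1, Osmr, Stk38, Mgst1, Flna, Slc44a2, Gask1b and Ppfia3, as well as Acta2, fell outside the naming rule and were named after their values were seen.

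**Figure D2:**
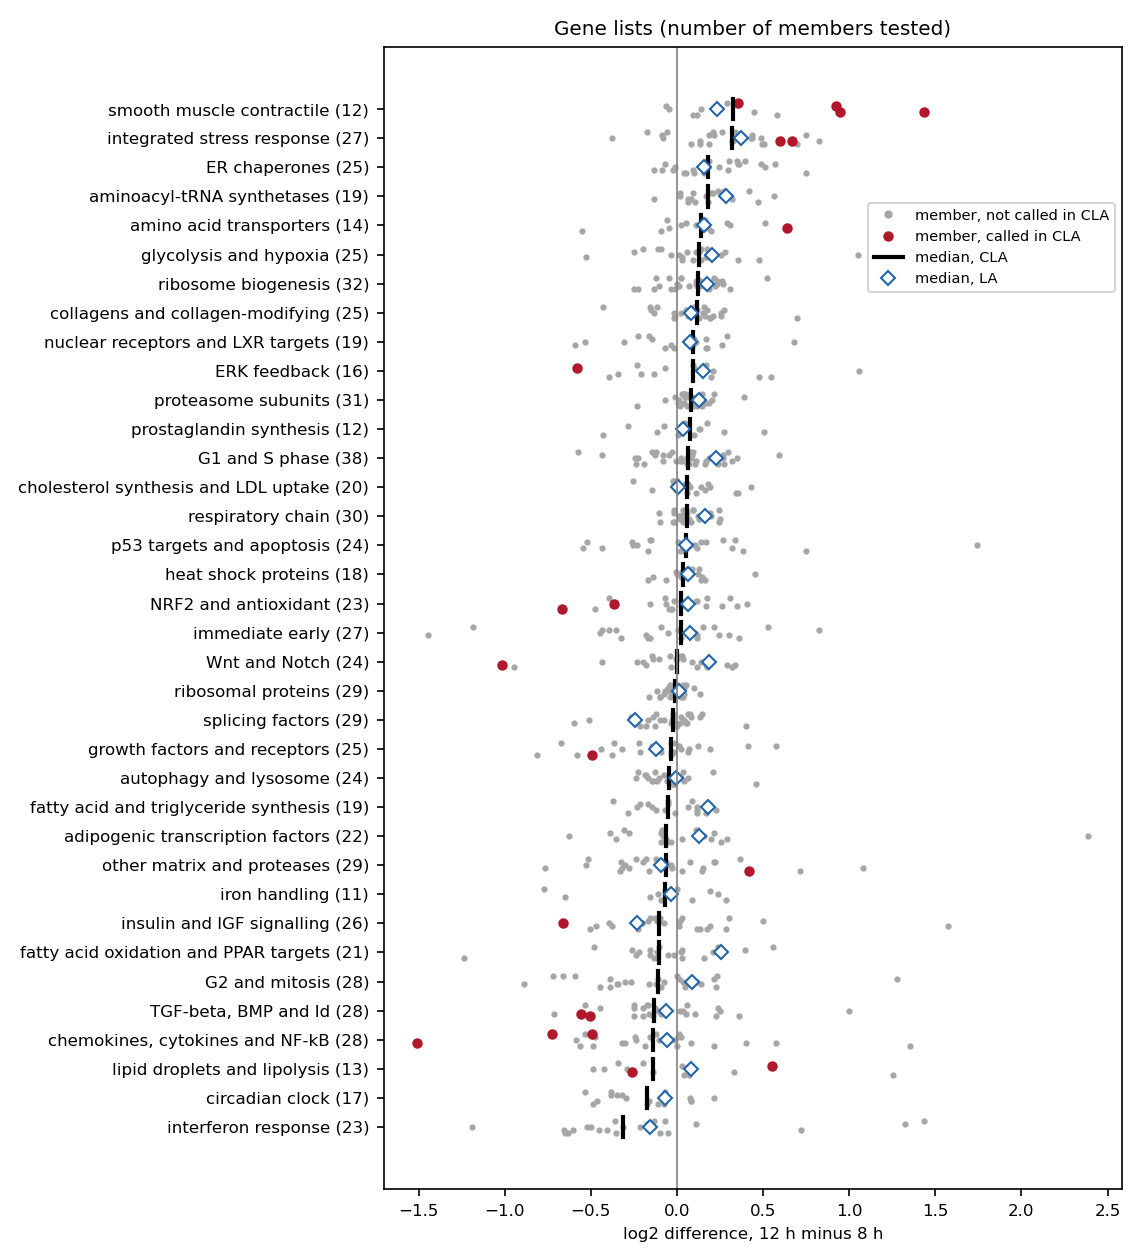
Log2 difference between 12 h and 8 h in CLA cells (x axis) for each tested member of 36 gene lists (y axis, number of members tested); grey points are members that did not pass the test, red points those that did, black bars the CLA median and blue diamonds the LA median. The contractile and stress response lists have the highest CLA medians (both 0.32) and the interferon response the lowest (-0.31), with 0 calls in the last.

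Among lists with 0 calls other than the marker lists, the interferon response had the lowest median, -0.31 over 23 genes (-0.34 to -0.21 over the alternatives), 19 of them negative and 12 apart downward against 14.3% of all genes. The list was dim, with a median level of 59.7. The immunoproteasome subunit Psmb8 measured 131 and 129 at 8 h and 85.2 and 78.2 at 12 h (log2 difference -0.66, adjusted p = 0.0685), the antiviral gene Ifit2 gave -0.61 (adjusted p = 0.16), and the tetherin gene Bst2 gave -0.31 (adjusted p = 0.251). Circadian clock genes gave 0 calls among 17, with 13 negative differences and a median of -0.18 (-0.30 to -0.11 over the alternatives, the last without the second CLA array of 12 h), led by the repressor Bhlhe40 (-0.38, adjusted p = 0.105). The collagens and their modifying enzymes gave 0 calls among 25, with the network collagen Col8a1 at 546 ± 91.0 (SD, n = 2) and then 879 ± 49.3 (0.69, adjusted p = 0.0685). Of the cell cycle lists, neither G1 and S phase (38 genes, median 0.06) nor G2 and mitosis (28 genes, median -0.11) had a call, and cyclin D1 (Ccnd1) stayed between 373 and 406 on the 4 arrays.

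Genes of fat metabolism that are often followed in such cells gave no call in CLA cells apart from Lpl and Fabp5. The 21 genes of fatty acid oxidation and PPAR targets gave 0 calls and a median of -0.11, and the 19 genes of fatty acid and triglyceride synthesis gave 0 calls and a median of -0.05. The lipid droplet coat protein Plin2 measured 2268 and 2557 at 8 h and 2553 and 2407 at 12 h (0.04, 95% interval -0.15 to 0.24). The lipase inhibitor Angptl4 gave -0.14 (-0.41 to 0.14) and the carnitine transferase Cpt1a -0.26 (-0.43 to -0.09, adjusted p = 0.247). The desaturase Scd1 gave 0.09 (-0.15 to 0.32) and fatty acid synthase (Fasn) 0.17 (-0.05 to 0.38). The adipogenic receptor Pparg was dim, with 12.0 and 18.5 at 8 h and 14.5 and 13.3 at 12 h (-0.09, -0.83 to 0.65), a wide interval. Cholesterol synthesis also gave 0 calls among 20 genes, with its enzyme Hmgcs1 at 2509 and 2403, then 2434 and 2749.

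**Figure D3:**
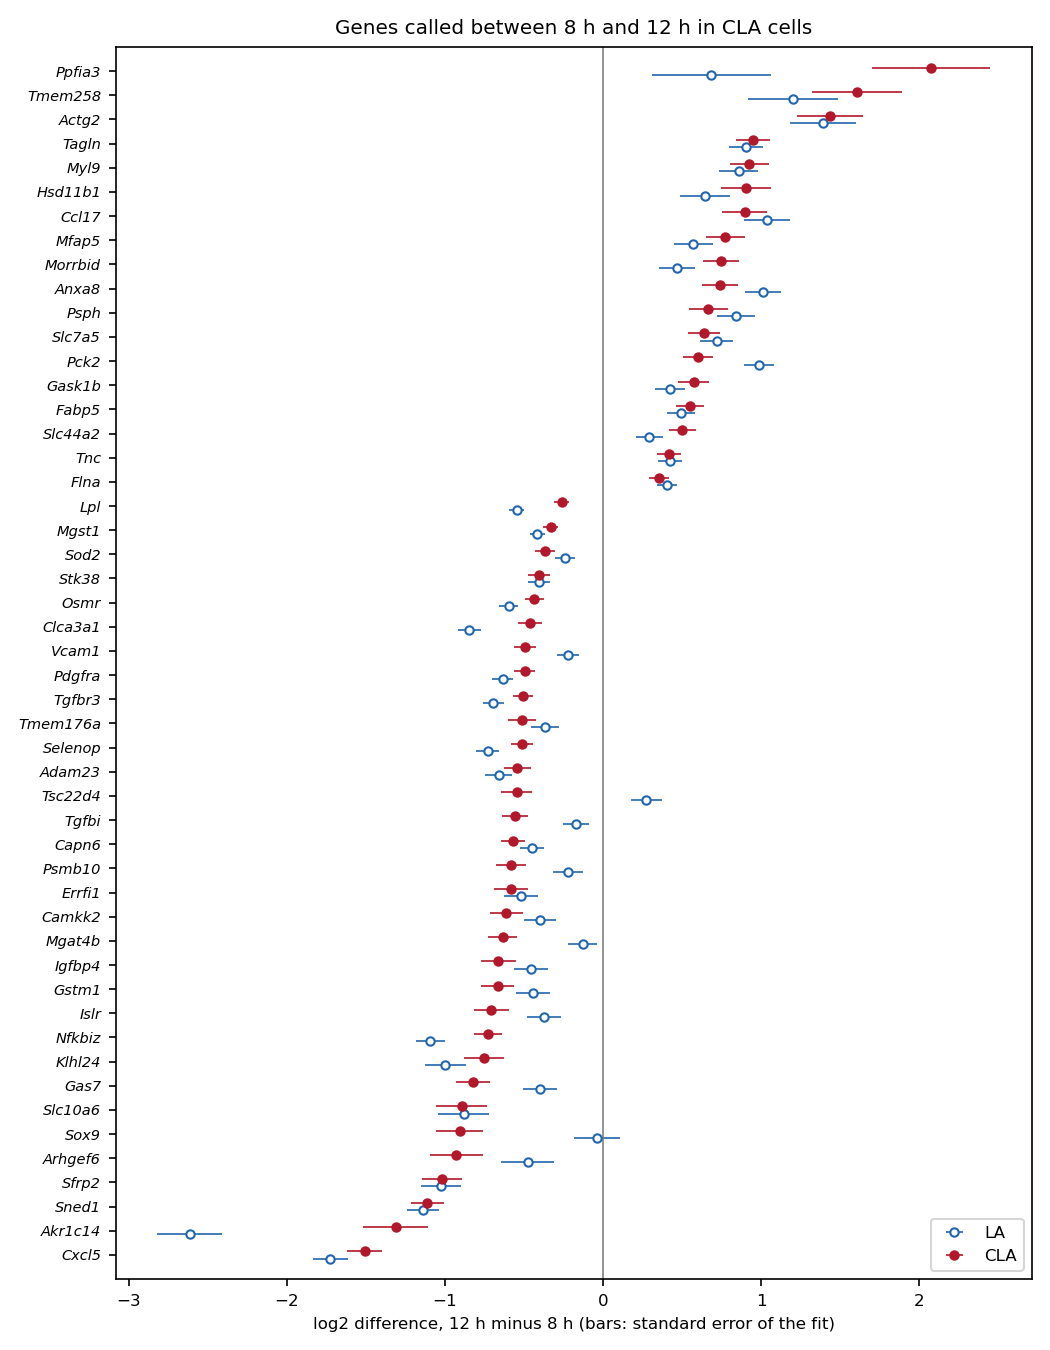
Log2 difference between 12 h and 8 h (x axis, bars are the standard error of the fit) for the 50 genes called in CLA cells (y axis), red filled for CLA and blue open for LA. Tsc22d4 is the gene with opposite signs, -0.55 in CLA and 0.27 in LA, and the contractile genes Actg2, Tagln and Myl9 have nearly the same value in both.

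Most of what changed in CLA cells over these 4 h changed in LA cells too. Of the 50 called genes, 49 had the same sign in LA cells and 43 were also called there in the same direction, 17 higher and 26 lower. LA cells had 2767 calls (22.1% of genes), 1359 higher (10.9%) and 1408 lower (11.3%), so the shared genes made up 86% of the CLA calls and 1.55% of the LA calls. For Actg2 the log2 difference was 1.44 in CLA and 1.39 in LA, for Tagln 0.95 and 0.90, for Cxcl5 -1.51 and -1.73, and for Sned1 -1.11 and -1.14. Tests of the difference between these changes gave adjusted p-values of 0.95, 0.912, 0.528 and 0.938, and the 95% interval of that difference for Tagln ran from -0.29 to 0.37. Pck2, Psph and Slc7a5 rose in LA cells too, with log2 differences of 0.99, 0.84 and 0.72 against 0.60, 0.67 and 0.64 in CLA. For these 3 genes the test of the difference gave adjusted p-values of 0.22, 0.65 and 0.821. Of the 19 synthetases, 9 were called higher in LA cells and 1 lower (10.9% and 11.3% of all genes). Without a test of the list, the stress response had a median of 0.32 in CLA and 0.37 in LA, and the synthetases 0.18 and 0.28. Fatty acid oxidation had -0.11 and 0.26, and the lipid droplet list -0.14 and 0.08. The median over all genes tested was itself 0.02 in CLA and 0.13 in LA.

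The 7 called genes that were not called in LA cells were Arhgef6, Sox9, Mgat4b, Psmb10, Tgfbi, Tsc22d4 and Ppfia3. For 1 of them, Tsc22d4, the difference between the changes passed the test in the main fit. Its call in CLA cells was kept in 7 of the 23 alternatives. With the 18S rRNA signal as a covariate, 0 genes passed the test of the difference. Tsc22d4 measured 818 and 917 in CLA at 8 h and 558 and 629 at 12 h, against 989 and 933 and then 1097 and 1230 in LA, a difference between the changes of -0.82 ± 0.14 SE (adjusted p = 0.0341). Its CLA and LA arrays of 12 h did not overlap. Sox9 gave -0.91 in CLA and -0.04 in LA, yet the difference between these changes did not pass the test (-0.87 ± 0.21 SE, adjusted p = 0.0702), and neither did that of Mgat4b (-0.51 ± 0.13 SE, adjusted p = 0.0956). The LA value of Sox9 near 0 rests on its brightest probe set. Its other probe sets gave -0.37 and -0.71 in CLA and -0.22 and -0.33 in LA.

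**Figure D4:**
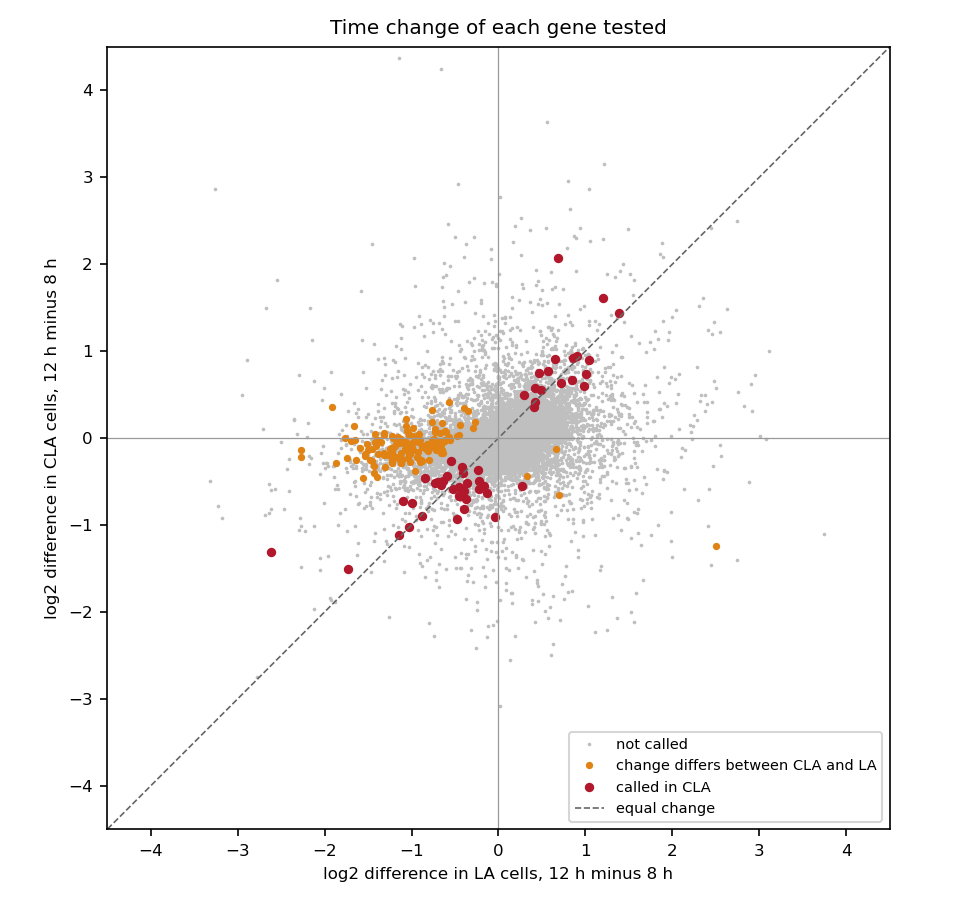
Log2 difference between 12 h and 8 h in CLA cells (y axis) against the same in LA cells (x axis) for all 12498 genes tested, 1 point per gene; red points were called in CLA, orange points had a change that differed between the fatty acids, and the dashed line marks equal change. Most red points lie near the dashed line, and most orange points lie near 0 on the y axis and below 0 on the x axis (medians -0.10 and -1.04 for the 139 with a higher change in CLA).

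Tested over all genes, the change from 8 to 12 h differed between the fatty acids in 144 genes (1.15%), higher in CLA in 139 (1.11%) and lower in 5 (0.04%). All 139 were called lower in LA cells and none was called in CLA cells, where 128 of them had a log2 difference within 0.3 of 0. Their median log2 difference was -0.10 in CLA cells and -1.04 in LA cells, whose arrays of 12 h also stood apart from all others on the leading component. The receptor Bmpr2, for bone morphogenetic proteins, measured 2866 and 2127 at 8 h and 2244 and 1925 at 12 h in CLA cells, against 2253 and 2457 and then 900 and 789 in LA cells (difference between the changes 1.23 ± 0.18 SE, adjusted p = 0.0324). Nucleolin (Ncl), which serves ribosome assembly, measured 2549 and 2016, then 1896 and 1916 in CLA, against 2096 and 2179, then 899 and 930 in LA (0.97 ± 0.13 SE, adjusted p = 0.0324). In both genes the LA arrays of 12 h were apart from every CLA array. Hmgcs1, an early enzyme of cholesterol synthesis, gave 0.08 in CLA and -0.60 in LA (0.68 ± 0.11 SE, adjusted p = 0.0324). In the opposite direction, the nuclear receptor Ppara gave -1.24 in CLA (33.1 and 41.6, then 13.1 and 16.5) and lay at background in LA at 8 h, where it was at least 5.41-fold higher at 12 h (adjusted p = 0.0235 for the difference). Without the first CLA array of 8 h this count was 911 (699 higher and 212 lower), and without the second it was 2. It was 1 without the first CLA array of 12 h, 181 (153 and 28) without the second, 0 without either LA array of 8 h or the first LA array of 12 h, and 3 without the second LA array of 12 h. Without the filter on dim genes it was 13, with 6 higher and 7 lower.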

How the data were processed

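The authors deposited 1 intensity per probe set and array on a linear scale, and some values lie below 0. The software that made them is not stated by any source used here. Per the labels' protocols, Trizol RNA was turned into biotinylated cRNA from 15 micrograms of total RNA. Ratio tables by time point were not used, and another LA array of 4 h was not analysed here. With 2 arrays per group, precision is limited by their number.

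The 45101 probe sets on 11 arrays were quantile normalised. Negative values became 0, and an offset of 1.84, the 25th percentile, was added before log2. Log2 differences and folds are on that scale, which understates changes of dim genes. Probe sets were kept where their mean exceeded 7.81, the 40th percentile of all values, and where they had 1 gene symbol. The brightest stood for its gene, which left 12498 genes. Of 34945 probe sets with 1 symbol, 34741 matched a current mouse gene by Entrez ID. The fit was limma 3.58.1 in R 4.3.3 with 1 mean for each of 6 groups, an intensity trend, 5 residual and 6.08 prior degrees of freedom, and Benjamini-Hochberg adjustment over all genes at 0.05. It was tested on simulated data. A gene counted as at background in a group when no array of the group exceeded 8.89, the 95th percentile of 27 bacterial control probe sets. The bound "at least N-fold" is the bright group's mean over that level, or over the dim signal where higher, in log2 space.

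Named genes were the 12 largest called increases and decreases among genes of at least median brightness, the 3 smallest p-values of each of 37 gene lists and 6 marker lists, the 10 smallest p-values of the difference between the changes, and 30 genes named whatever their result, of which 28 were tested. Members and lists were chosen with earlier results of these data known. Lists are described by counts and medians, without a test. Same-numbered replicates did not deviate together (r between -0.038 and 0.0768), so the main fit has no replicate block. Alternatives changed the scaling, offset, filter, probe set choice, arrays, prior trend, block and covariates.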

Additional observations from a re-analysis of the deposited data

Results flagged for a closer look

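For 17 named genes the change from 8 to 12 h in CLA cells differed from that in LA cells by the test of the difference (limma, adjusted p under the threshold). They include the genes that were named for the 10 smallest p-values of this same test, so the count of 17 is no separate result. Given as the CLA change minus the LA change on the log2 scale, Ppara had -3.74 (fitted against LA arrays of 8 h at background, so its size is not measured), Tsc22d4 -0.82 and the cell cycle inhibitor Cdkn1a -0.76. Cdkn1a measured 663 and 768, then 525 and 529 in CLA cells (-0.44) and gave 0.33 in LA cells. The other genes had a positive difference: Klf9 0.62, Hif1a 0.55, Ncl 0.97, Bmpr2 1.23, Lamp2 0.47, Rbms1 0.89, Tug1 0.91, Pank3 1.13, Aff4 0.89, Slc30a4 0.88, Larp4 1.31, Ccdc186 1.35, Hmgcs1 0.68 and Magt1 0.98. Of these, the oxygen-sensing factor Hif1a measured 4658 and 3955, then 3463 and 3761 in CLA cells (-0.25) and gave -0.80 in LA cells. Magt1, a subunit of the oligosaccharyltransferase, gave 0.41 in CLA and -0.57 in LA. The 18S rRNA signal also differed between the arrays of 12 h, at 316 and 1755 in CLA and 593 and 2866 in LA, and its part in these differences was not tested gene by gene; with it as a covariate, 0 genes passed the test of the difference (1662 at an unadjusted p under 0.05).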

How the results depend on the processing

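The number of calls in CLA cells, 50 in the main fit, moved with the processing, and so did the genes. It was 7 with arrays scaled to the same median (6 of them among the 50), 1 with values as deposited (also among the 50) and 28 without a filter (14 among the 50). Averaging the probe sets of a gene gave 21 calls (19 among the 50), and the fit without the intensity trend gave 1, which was not among the 50. The 4 CLA arrays of 8 and 12 h alone gave 5 calls (4 among the 50), and the 6 CLA arrays alone gave 3, all among the 50. Some settings moved the count less. Cyclic loess gave 43 calls (41 among the 50), the halved offset 49 (all 49) and an offset 4 times as large 50 (49). A filter at the median over probe sets gave 52 calls (49 among the 50), and median intensity as a covariate 59 (43). Leaving out 1 array gave 12 to 81 calls. The 144 genes with differing changes became 273 with arrays scaled to the same median, 38 with values as deposited, 246 with cyclic loess, 13 without a filter, 1 with averaged probe sets, 1 without the intensity trend, 0 with the arrays of 8 and 12 h alone (1645 at an unadjusted p under 0.05), 13 with median intensity as a covariate, and 0 to 911 with 1 array left out. Here too the genes moved: 101 of the 273, 31 of the 38, 142 of the 246 and 2 of the 13 without a filter were among the 144. The 18S rRNA covariate, chosen after seeing the data, gave 75 calls in CLA cells (49 among the 50) and 0 differing changes. Replicate numbers did not pair the samples, so the replicate block is only an alternative: shared by all groups it gave 48 calls and 210 differing changes, and within each fatty acid 7 calls and 102 differing changes. Over 23 alternatives the called genes kept their call in 522 of 1150 values, with 0 turned in sign, and 0 genes kept it in every one. Other named genes stayed without a call in 3145 of 3167 values. List medians moved by no more than a rough spread in 849 of 989 values, and 48 turned in sign. That spread was the SD of 2 list medians, each from a CLA array of 12 h minus the same-numbered array of 8 h. As these numbers do not pair the samples, it is only a yardstick. The cause of these shifts was not tested.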

Other observations

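Several lists that gave 0 calls in CLA cells leaned one way between 8 and 12 h in small steps. The differences of 28 of 31 proteasome subunits were positive, with a median of 0.08, as were those of 24 of 30 respiratory chain genes (median 0.06) and 24 of 32 ribosome biogenesis genes (median 0.12), against a median of 0.02 for all genes. Autophagy and lysosome genes had a negative difference in 18 of 24 (median -0.05). Some genes lay just short of the threshold. The immediate early factor Egr3 measured 55.5 and 56.3 at 8 h and 21.8 and 25.4 at 12 h (log2 difference -1.19, adjusted p = 0.0523), the isoprenoid enzyme Fdps 1845 and 1908, then 2638 and 2416 (0.43, adjusted p = 0.0534), and the matrix proteoglycan lumican (Lum) 93.2 and 95.3, then 50.4 and 59.1 (-0.77, adjusted p = 0.0601). The mesenchymal surface marker Thy1 measured 370 and 462, then 617 and 599 (0.55, adjusted p = 0.0685). The colony-stimulating factor receptor Csf1r, a macrophage marker, measured 127 and 116, then 426 and 193 (1.23, adjusted p = 0.144), with the arrays of 12 h far from each other. Of the 7 macrophage markers tested, 5 had a negative difference and the median was -0.16.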
